A study of Mus musculus with 6 samples.

Results

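The genes described here carry sugar into the cell, break it down to pyruvate and lactate, control whether pyruvate is oxidised in the mitochondrion, and respond to low oxygen. They were chosen by name, as 49 mouse genes of glucose and lactate transport, glycolysis, control of pyruvate dehydrogenase, oxygen sensing and the hypoxia response. Of these, 45 were measured, among 19938 genes on the array with a symbol of their own. Gapdh was present only on probe sets that carry several gene symbols and was left out, and Gpi1, Eno1 and Pfkfb1 matched no probe set named here.

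RNA came from mouse embryonic stem (ES) cells of 2 genotypes, Scc1 lox/lox ERT2-Cre and Scc1 wt/wt ERT2-Cre, with 3 biological replicates each. Scc1 is another name of Rad21, the subunit that closes the cohesin ring, and cohesin holds sister chromatids together and folds chromosomes into loops. ERT2-Cre is a recombinase that enters the nucleus when its ligand 4-OHT binds, and both genotypes carry it and both received 4-OHT for 24 h, at 80 nM in the sample labels (the design text has mM). The cells were female, of mixed C57BL/129 background, and grew on laminin in N2B27 with 2i and LIF, where 2i stands for inhibitors of Mek and Gsk3 that keep ES cells naive. No samples without 4-OHT were analysed here, so the loss of Scc1 cannot be told apart from other lasting differences between the lox/lox and wt/wt cells, and the labels do not say how many lines or clones were used. Values are log2 intensities of Affymetrix Mouse Gene 1.0 ST arrays, and each change is lox/lox minus wt/wt with its standard error (SE) over 3 arrays each. Since RNA is from whole cultures, fewer cells of a type and less RNA per cell cannot be told apart.

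Glycolysis turns glucose into pyruvate in the cytosol. Pyruvate is then reduced to lactate by lactate dehydrogenase, or oxidised in the mitochondrion by the pyruvate dehydrogenase complex, which Pdk kinases switch off and Pdp phosphatases switch on. In low oxygen, hypoxia-inducible factors (HIF) escape the prolyl hydroxylases of the Egln family, pair with Arnt and raise transcription of glucose transporters, glycolytic enzymes, Pdk1, Bnip3 and Vegfa. Naive ES cells are known to use both glycolysis and respiration.

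Rad21 stood at 6.08, 6.06 and 6.14 on the lox/lox arrays, against 10.05, 9.99 and 10.01 on the wt/wt arrays (log2 change -3.92, limma adjusted p = 1.57e-09). Over all genes, 508 were called higher in lox/lox and 720 lower at an adjusted p under 0.05 (limma, Benjamini-Hochberg over all genes), which is 2.55% and 3.61% of the genes tested, 6.16% in all. Of the 8 ES cell markers, Sox2 (-0.48), Nanog (-0.55) and Esrrb (-0.34) were called lower, and all 8 averaged between 9.65 and 13.25 in both genotypes, far above the array medians of 4.85 to 4.94. Over all genes, 3579 of 19938 had an unadjusted limma p under 0.05. Of 10 fibroblast markers 0 were called in limma and 1 had such an unadjusted p. Of these 10, Dcn, Lum, Postn and Pdgfra averaged between 3.0 and 4.53 in lox/lox and between 3.0 and 4.52 in wt/wt, below the array medians. Col1a1, Col1a2, Col3a1, Thy1 and Acta2 averaged between 5.07 and 6.37 in lox/lox and between 5.04 and 6.14 in wt/wt, above them, and Fn1, which ES cells also express, averaged 10.45 in lox/lox and 10.37 in wt/wt. Of 8 primitive endoderm markers, Lamb1 was called higher (0.78) and 7 were not called. Over all 8, 4 changes were positive and 4 negative (median -0.003). Gata4, Gata6 and Sox17 averaged 5.12, 4.52 and 3.92 in lox/lox and 4.85, 4.50 and 4.03 in wt/wt. Sox7, Dab2, Col4a1 and Foxa2 had changes of -0.12, 0.088, -0.028 and -0.070. The changes of all 8 ES markers were negative (median -0.23), and the part of this in the results below was not tested.

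Over all 35556 probe sets, the first component of the variation within genotypes held 34.8% of it. On it lox/lox replicate 3 had a loading of -0.482 and wt/wt replicate 2 one of -0.621, while the other 4 arrays lay between 0.121 and 0.50. For the genes described here lox/lox replicate 3 was often high. It was the highest of the 3 lox/lox arrays for 33 of the 45 genes (73.3%), compared with 40.3% of all genes and 51.8% of genes brighter than the array median. Its median distance from the mean of the other 2 lox/lox arrays was 0.19 for the 45 genes and 0.01 for all genes. For genes brighter than the array median it was 0.20 for 43 of the 45 and 0.06 for all. The distance reached 1.01 for Bnip3, 0.98 for Slc16a3, 0.82 for Egln3 and 0.67 for Egln1. In wt/wt, replicates 1, 2 and 3 were the highest for 15, 16 and 14 genes. The SD was larger in lox/lox than in wt/wt for 30 of the 45 genes (66.7%, against 49.3% of all genes), with median SDs of 0.13 in lox/lox and 0.079 in wt/wt. The labels do not say what set this culture apart. Without both arrays, 1 of the 45 genes was called higher and 5 lower, and with all arrays 2 and 5.

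**Figure D1:**
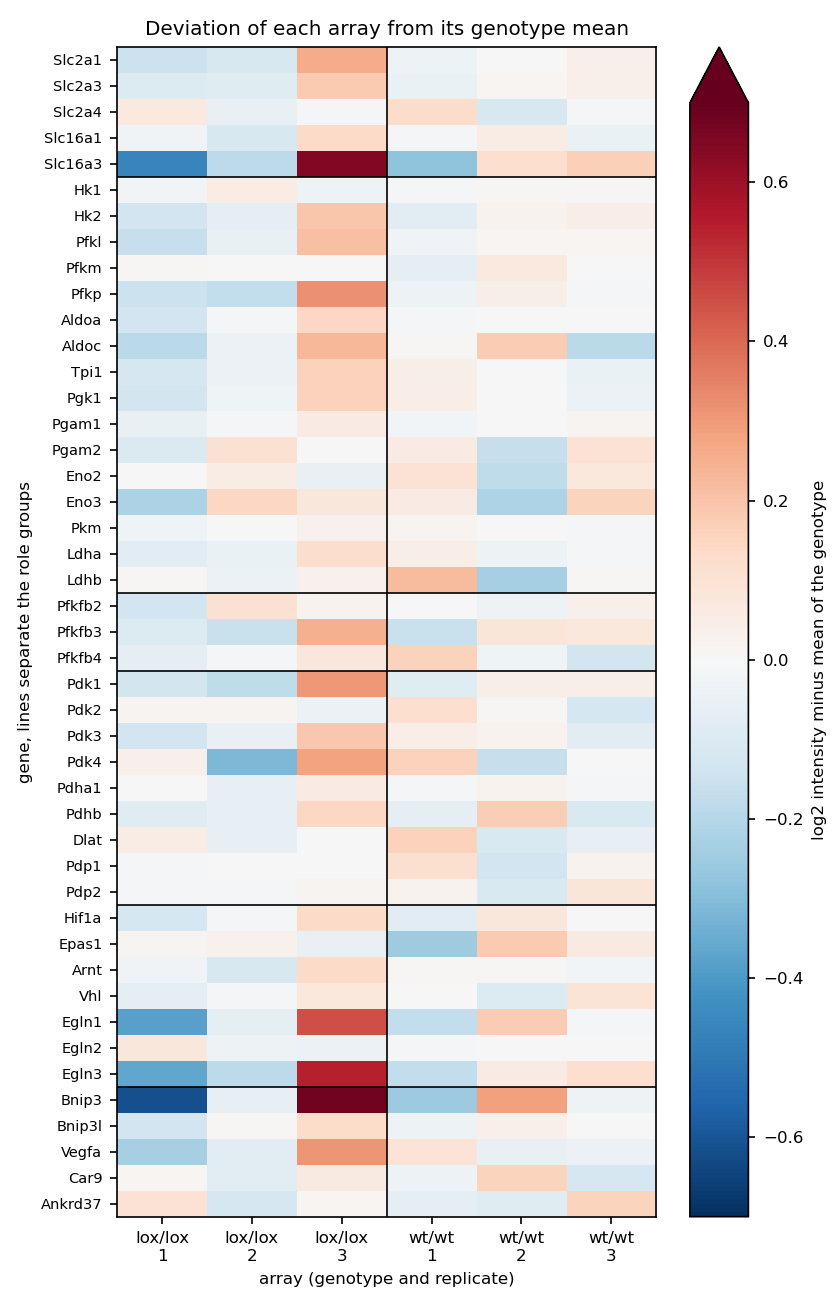
Colour shows the log2 intensity on each array minus the mean of its genotype, for the 45 measured genes (rows, grouped by role) on the 3 lox/lox and 3 wt/wt arrays (columns). The column of lox/lox replicate 3 is red in most rows, and is the highest of its genotype in 33 of 45.

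Across the 45 genes the changes went both ways, and 6 reached 1.5-fold. Pdk1 and Ldhb were called higher in lox/lox, Slc2a1, Slc2a3, Epas1, Egln3 and Vegfa were called lower, and 38 genes were not called. These 2 higher and 5 lower genes of 45 stand beside 2.55% and 3.61% of all genes called in those directions. In limma, 14 of the 45 had an unadjusted p under 0.05, beside 3579 of 19938 over all genes. The median change was -0.008, as it was over all genes, and 22 genes had a positive and 23 a negative change. The lox/lox arrays lay wholly above the wt/wt arrays for 7 genes and wholly below for 9, and over all genes this held for 10.1% and 12.7%. Known HIF targets were found on both sides, Pdk1 among the higher genes and Slc2a1, Egln3 and Vegfa among the lower.

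**Figure D2:**
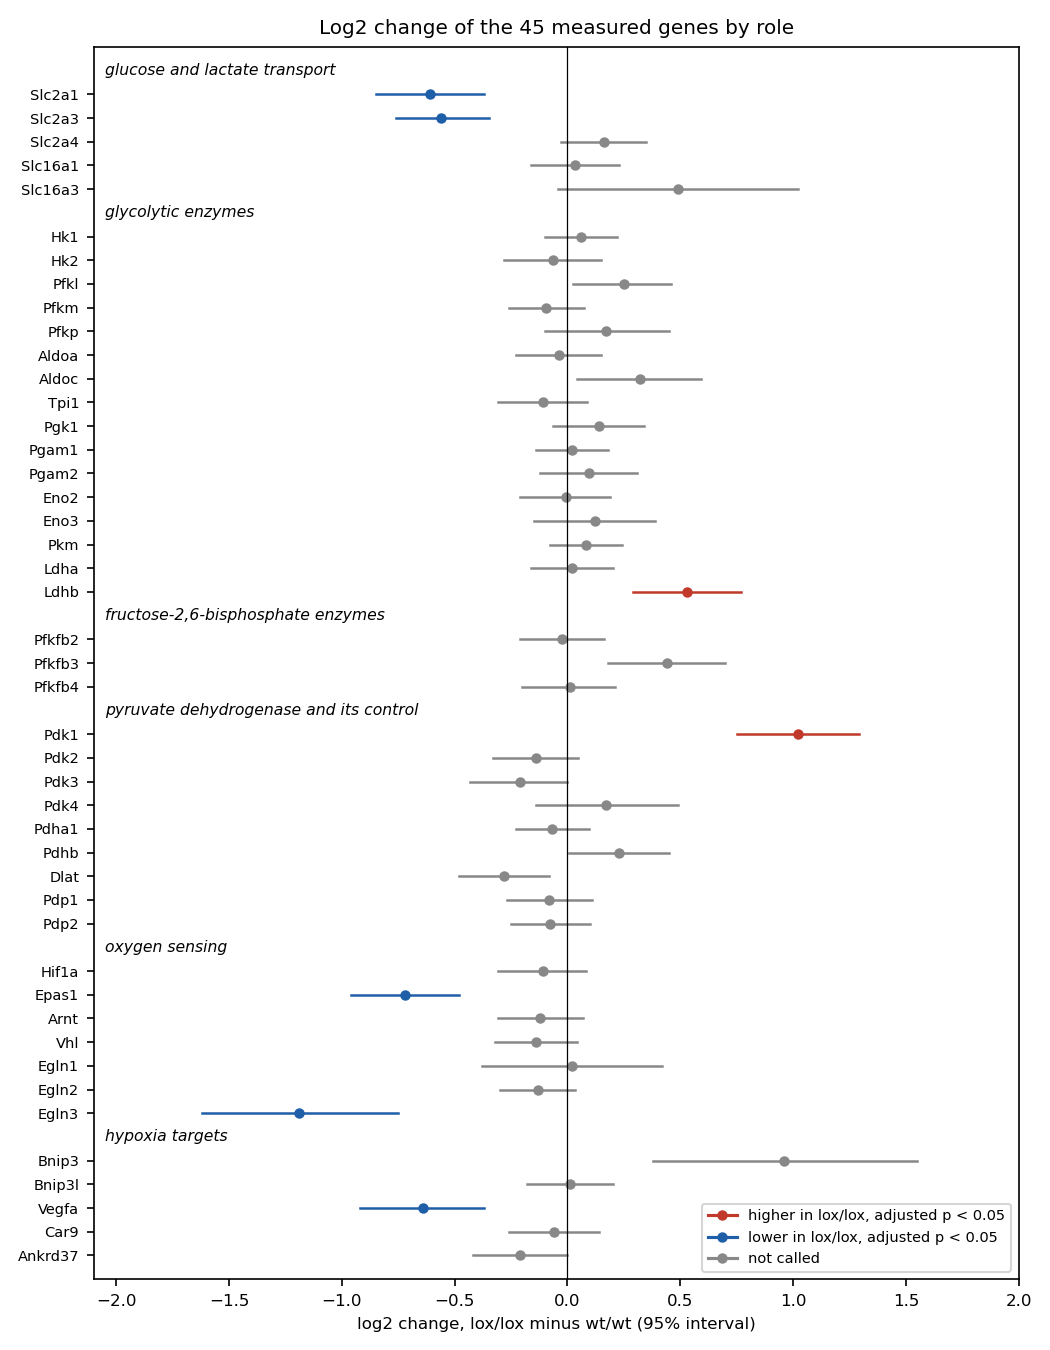
Points are log2 changes, lox/lox minus wt/wt, of the 45 measured genes by role, with 95% intervals from limma as lines (3 arrays each). Red marks the 2 genes called higher, blue the 5 called lower and grey the 38 not called, which lie mostly near 0.

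Promoter windows are shown for 5 of the called genes, chosen because at least 1 of their listed windows holds the short core that HIF is known to bind. Each window runs from 250 bases before to 50 after the annotated start (RefSeq, GRCm38.p6), is written 5′ to 3′ on the gene's strand, and has in capitals the letters ACGTG or GCGTG, or their reverse complements CACGT and CACGC. For Vegfa both listed windows are shown: the first holds none of these letters, and the second belongs to a start annotated several kilobases further along the gene. The second listed window of Pdk1, not shown, also holds none. Slc2a3 and Epas1 had no listed window, so whether theirs hold the core was not seen.
Egln3, chr12:54203825-54204124, minus strand: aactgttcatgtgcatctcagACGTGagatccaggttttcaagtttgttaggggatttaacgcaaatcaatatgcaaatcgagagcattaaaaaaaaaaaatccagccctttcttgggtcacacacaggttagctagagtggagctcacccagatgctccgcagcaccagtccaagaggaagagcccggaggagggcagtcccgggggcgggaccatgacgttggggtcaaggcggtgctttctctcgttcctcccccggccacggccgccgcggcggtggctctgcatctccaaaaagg
Pdk1, chr2:71872974-71873273, plus strand: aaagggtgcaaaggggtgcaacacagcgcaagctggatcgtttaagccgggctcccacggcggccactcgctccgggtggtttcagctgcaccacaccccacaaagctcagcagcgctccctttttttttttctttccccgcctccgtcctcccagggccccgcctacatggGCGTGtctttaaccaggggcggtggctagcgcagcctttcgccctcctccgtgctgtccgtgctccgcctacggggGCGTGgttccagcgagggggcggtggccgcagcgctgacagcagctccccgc
Vegfa, first window, chr17:46032328-46032627, minus strand: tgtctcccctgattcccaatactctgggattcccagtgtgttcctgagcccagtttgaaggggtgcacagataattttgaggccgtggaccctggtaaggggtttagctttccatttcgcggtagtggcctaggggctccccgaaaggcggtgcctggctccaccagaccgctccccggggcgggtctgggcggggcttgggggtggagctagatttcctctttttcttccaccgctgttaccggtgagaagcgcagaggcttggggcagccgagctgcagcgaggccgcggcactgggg
Vegfa, second window, chr17:46025114-46025413, minus strand: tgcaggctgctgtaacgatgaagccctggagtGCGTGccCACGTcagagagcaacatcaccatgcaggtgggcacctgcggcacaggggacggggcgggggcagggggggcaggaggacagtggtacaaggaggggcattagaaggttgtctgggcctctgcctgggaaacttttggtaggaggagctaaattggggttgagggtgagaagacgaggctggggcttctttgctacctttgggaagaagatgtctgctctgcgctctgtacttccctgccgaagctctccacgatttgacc
Slc2a1, chr4:119108495-119108794, plus strand: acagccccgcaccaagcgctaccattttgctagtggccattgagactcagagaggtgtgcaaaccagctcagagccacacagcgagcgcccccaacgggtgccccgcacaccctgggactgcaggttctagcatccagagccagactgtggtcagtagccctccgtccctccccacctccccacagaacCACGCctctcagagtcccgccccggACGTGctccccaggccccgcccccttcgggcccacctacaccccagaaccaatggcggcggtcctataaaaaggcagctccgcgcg
Ldhb, chr6:142507908-142508207, minus strand: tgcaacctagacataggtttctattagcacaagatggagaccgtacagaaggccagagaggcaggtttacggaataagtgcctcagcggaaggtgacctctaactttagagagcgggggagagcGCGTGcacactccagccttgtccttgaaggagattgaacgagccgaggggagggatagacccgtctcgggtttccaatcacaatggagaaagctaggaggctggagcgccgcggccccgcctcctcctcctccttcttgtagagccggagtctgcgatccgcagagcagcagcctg

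Since these windows were chosen for holding the core, nothing is read from which of its forms each one holds. Of the 40 measured genes with a listed window, 35 hold ACGTG or GCGTG on either strand in at least 1 window. Counted by window, that is 44 of 56 (78.6%), compared with 43.8% of all 32851 windows. The windows compared were not matched for base composition, and the genes were chosen by name for roles that include the hypoxia response. ACGTG alone was in 53.6% of the genes' windows and 19.6% of all, GCGTG in 53.6% and 32.4%, and CACGTG, the E-box that contains ACGTG and that Myc is known to bind, in 17.9% and 7.15%. Ldha, whose change was 0.022, has 5 matches to ACGTG in its first window. Such a match is a string of letters and shows no binding.

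Of the 5 transporters, the glucose carriers Slc2a1 and Slc2a3 were lower in lox/lox, 0 were higher and 3 were not called. Slc2a1 encodes Glut1, the transporter for basal glucose uptake in most cells. Its values were 10.42, 10.46 and 10.83 on the lox/lox arrays, against 11.15, 11.18 and 11.22 on the wt/wt arrays. All lox/lox arrays lay below all wt/wt arrays, and replicate 3 was the lox/lox array nearest to them. The change was -0.61 (SE 0.11, limma adjusted p = 0.00828), or 1.53-fold higher in wt/wt. Without lox/lox replicate 2 the adjusted p was 0.0503, and without lox/lox replicate 3 the change was -0.74 (adjusted p = 0.00254).

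Slc2a3 encodes Glut3, a transporter with a high affinity for glucose that is abundant in neurons and early embryos. It measured 11.73, 11.74 and 12.01 in lox/lox, against 12.34, 12.40 and 12.42 in wt/wt. The groups did not overlap, and replicate 3 was again the highest of the lox/lox arrays. The change was -0.56 (SE 0.093, limma adjusted p = 0.00586), 1.47-fold higher in wt/wt, and it stayed past the threshold whichever array was left out. Slc2a4, the insulin-regulated Glut4 of muscle and fat, averaged 5.14 in lox/lox and 4.98 in wt/wt, near the array medians (change 0.16, limma adjusted p = 0.369).

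Slc16a1 and Slc16a3 encode the monocarboxylate transporters Mct1 and Mct4, which carry lactate across the plasma membrane. Slc16a1 averaged 9.97 ± 0.13 in lox/lox and 9.94 ± 0.049 in wt/wt (SD, n = 3 each), with a 95% interval of the change from -0.16 to 0.23. Slc16a3, itself a known HIF target, measured 7.31, 7.59 and 8.42 in lox/lox, against 7.0, 7.40 and 7.45 in wt/wt. Only replicate 3 of lox/lox lay well above the wt/wt arrays. Its change of 0.49 was not called (limma adjusted p = 0.329), and without that array it was 0.16.

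Of the 16 measured enzymes of glycolysis and lactate formation, Ldhb alone was called (1 higher, 0 lower, 15 not called), and 3 had an unadjusted p under 0.05 in limma. Their changes ran from -0.11 to 0.53 with a median of 0.072. Ldhb encodes the heart-type subunit of lactate dehydrogenase. It measured 9.95, 9.90 and 9.97 in lox/lox, against 9.63, 9.18 and 9.42 in wt/wt. Here the lox/lox arrays lay close together, the wt/wt arrays were spread, and the groups did not overlap. The change was 0.53 (SE 0.11, 1.44-fold, limma adjusted p = 0.0171). A second probe set of Ldhb measured 9.72, 9.78 and 9.87 in lox/lox, against 9.40, 9.34 and 9.26 in wt/wt, a change of 0.45. Leaving out lox/lox replicate 1, 2 or 3 or wt/wt replicate 3 ended this call (highest adjusted p 0.0632). Ldha, the muscle-type subunit that HIF is known to raise, measured 12.12, 12.15 and 12.32 in lox/lox, against 12.22, 12.14 and 12.17 in wt/wt (change 0.022, 95% interval -0.16 to 0.20). Its groups overlapped.

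The hexokinases, which trap glucose in the cell as its phosphate, were not called. Hk1 averaged 12.70 in lox/lox and 12.63 in wt/wt (0.062). Its second probe set read far lower, at 7.79, 7.92 and 7.97 in lox/lox, against 8.02, 7.90 and 7.85 in wt/wt (-0.028). Among the genes described here, probe set identifiers mostly ran in order of chromosome. That of the first Hk1 probe set fell among chromosome 14 genes, and that of the second among chromosome 10 genes, where Hk1 lies. The values of the first may therefore not be those of Hk1. Where the probes map, and which probe set better reflects the level of Hk1, was not tested. Hk2, the HIF-responsive form, averaged 10.08 in lox/lox and 10.15 in wt/wt (-0.066, limma adjusted p = 0.816). Phosphofructokinase commits sugar to glycolysis, and its 3 genes had changes of 0.25 for Pfkl, -0.093 for Pfkm and 0.17 for Pfkp. Pfkl, the liver form, measured 9.31, 9.42 and 9.68 in lox/lox, against 9.20, 9.24 and 9.24 in wt/wt. Its groups did not overlap, yet its limma adjusted p was 0.214 and the change without lox/lox replicate 3 was 0.14. Pfkp, the platelet form, had a change of 0.014 without that array.

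The aldolases split fructose bisphosphate. Aldoa averaged 12.37 in lox/lox and 12.41 in wt/wt (-0.038), and Aldoc 7.68 in lox/lox and 7.36 in wt/wt (0.32, limma adjusted p = 0.199). No enzyme of the middle and lower steps was called. Tpi1, triose phosphate isomerase, had a change of -0.11, Pgk1, the first enzyme that yields ATP, 0.14, the mutases Pgam1 and Pgam2 0.019 and 0.095, the enolases Eno2 and Eno3 -0.008 and 0.12, and Pkm, pyruvate kinase, 0.081. Their limma adjusted p ran from 0.501 for Pgk1 to 0.98 for Eno2. The 95% interval was -0.14 to 0.18 for Pgam1 and -0.078 to 0.24 for Pkm, so a change of 1.5-fold lay outside both. Pgam2, Eno2 and Eno3 averaged between 4.51 and 5.17, close to the array medians, where background can understate a change. Pgk1, Pgam1 and Pkm each have further probe sets, with changes of 0.14, 0.020 and 0.069. Some probe sets of Pgk1, and some of Pgam1, had the same rounded values on every array. Their likeness is therefore no independent check. Several glycolytic genes have near-identical processed pseudogenes in mouse, and signal from such copies cannot be told apart from that of the gene.

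Pfkfb enzymes make or remove fructose 2,6-bisphosphate, the strongest known activator of phosphofructokinase. None of the 3 measured was called in limma, and 1 had an unadjusted p under 0.05. That was Pfkfb3, the form with the highest ratio of kinase to phosphatase activity, which measured 6.26, 6.20 and 6.6 in lox/lox, against 5.76, 6.0 and 5.99 in wt/wt. Its groups did not overlap. The change of 0.44 (SE 0.12) missed the threshold (limma adjusted p = 0.0533), and it passed when dim genes were left out (adjusted p = 0.0378), with a trended robust variance (adjusted p = 0.0421) and with replicate numbers as a block (adjusted p = 0.0323). Without lox/lox replicate 3 it was 0.32 (adjusted p = 0.121). Pfkfb2 and Pfkfb4 had changes of -0.025 and 0.009.

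Pdk1 was higher in lox/lox. It encodes a kinase that inactivates pyruvate dehydrogenase and thereby limits the oxidation of pyruvate. Its values were 7.63, 7.58 and 8.06 on the lox/lox arrays, against 6.65, 6.78 and 6.78 on the wt/wt arrays. The lowest lox/lox array lay 0.80 above the highest wt/wt array. The change was 1.02 (SE 0.12), or 2.03-fold higher in lox/lox (limma adjusted p = 0.00095). Pdk1 stayed past the threshold whichever array was left out. With lox/lox replicate 3 left out, its change was 0.87 (adjusted p = 0.00192).

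The other kinases were not called. Pdk2 and Pdk3 had changes of -0.14 and -0.21, and Pdk4, the form induced by fasting, 0.17 (limma adjusted p from 0.271 to 0.613 for these 3 genes). Their 95% intervals ended at 0.045 for Pdk2, -0.003 for Pdk3 and 0.49 for Pdk4, all below the 0.75 at which that of Pdk1 began. No test of the difference between kinases was made. Pdk2 averaged 4.86 in lox/lox and 5.0 in wt/wt, near the array medians.

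The subunits and phosphatases of the complex were not called. Pdha1, the catalytic alpha subunit, averaged 11.68 in lox/lox and 11.75 in wt/wt (-0.070). Pdhb, its partner, measured 9.38, 9.41 and 9.61 in lox/lox, against 9.17, 9.41 and 9.13 in wt/wt (0.23, limma adjusted p = 0.257). Dlat, the acetyltransferase core, measured 8.6, 8.49 and 8.55 in lox/lox, against 8.99, 8.72 and 8.77 in wt/wt, without overlap. Its change of -0.28 was not called (limma adjusted p = 0.11) but passed with a trended robust variance (adjusted p = 0.0447). The phosphatases Pdp1 and Pdp2, which reactivate the complex, had changes of -0.082 and -0.077. Of the 9 genes of this group, 1 was called higher and 0 lower. An unadjusted limma p under 0.05 was found for 4, beside 3579 of 19938 over all genes.

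**Figure D3:**
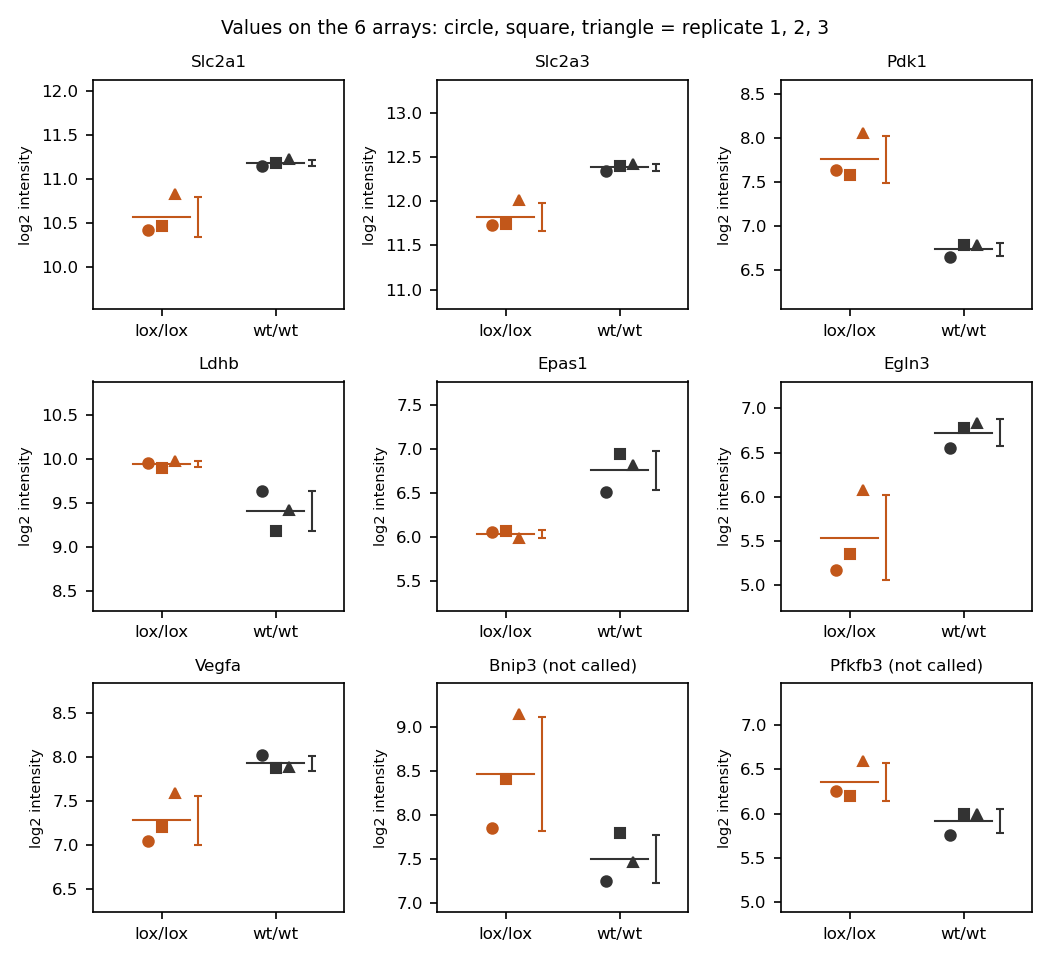
Log2 intensity (vertical axis, each panel spanning the same range) on the 3 lox/lox arrays, left, and the 3 wt/wt arrays, right, for the 7 called genes and for Bnip3 and Pfkfb3, which were not called. Horizontal lines are means, bars are SDs, and lox/lox replicate 3 (triangle) is the highest lox/lox array in every panel except Epas1.

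Among the 7 oxygen-sensing genes, 2 were called lower, 0 higher and 5 were not called. Of the 7 changes 6 were negative, beside 10472 of 19938 over all genes. Those of Hif1a, Arnt, Vhl and Egln2 were small, between -0.14 and -0.11. Egln3 encodes prolyl hydroxylase 3, which marks HIF for destruction and is itself raised by HIF in low oxygen. It measured 5.17, 5.35 and 6.08 in lox/lox, against 6.55, 6.78 and 6.84 in wt/wt. The groups did not overlap, and lox/lox replicate 3 lay between the other lox/lox arrays and the wt/wt arrays. The change was -1.19 (SE 0.20), or 2.28-fold higher in wt/wt (limma adjusted p = 0.00576). Without lox/lox replicate 3 it was -1.46 (adjusted p = 0.000747).

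Epas1 encodes HIF-2 alpha, the oxygen-regulated subunit first described in endothelium. It measured 6.06, 6.07 and 5.99 in lox/lox, against 6.51, 6.94 and 6.82 in wt/wt. The lox/lox arrays lay close together, with replicate 3 the lowest, and all were below wt/wt. The change was -0.72 (SE 0.11), or 1.65-fold higher in wt/wt (limma adjusted p = 0.00345), and both Epas1 and Egln3 stayed past the threshold whichever array was left out.

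Hif1a, the more widely expressed alpha subunit, was not called, at 8.57, 8.68 and 8.83 in lox/lox, against 8.74, 8.89 and 8.81 in wt/wt. Its change was -0.11 (95% interval -0.31 to 0.083). HIF protein is mainly controlled by its breakdown, which RNA does not show. Arnt, the shared beta subunit, and Vhl, which recognises hydroxylated HIF for ubiquitination, had changes of -0.12 and -0.14 (limma adjusted p = 0.535 and 0.444). Egln1, the main hydroxylase acting on HIF-1 alpha, measured 6.63, 6.94 and 7.46 in lox/lox, against 6.82, 7.17 and 6.98 in wt/wt. It had both the lowest and the highest value on lox/lox arrays, for a change of 0.019 that was -0.20 without lox/lox replicate 3 (adjusted p = 0.464). Egln2 averaged 7.77 in lox/lox and 7.91 in wt/wt, a change of -0.13 that was not called (adjusted p = 0.414) although its groups did not overlap.

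The 5 hypoxia targets included 1 gene called lower, Vegfa, and 0 called higher, and 2 had an unadjusted p under 0.05 in limma. Vegfa encodes the growth factor that draws in blood vessels. It measured 7.05, 7.20 and 7.59 in lox/lox, against 8.02, 7.87 and 7.88 in wt/wt. All lox/lox arrays were below all wt/wt arrays. The change was -0.64 (SE 0.13), or 1.56-fold higher in wt/wt (limma adjusted p = 0.0133). The call was lost without lox/lox replicate 2 (adjusted p = 0.0718), and without lox/lox replicate 3 the change was -0.80 (adjusted p = 0.00325).

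Bnip3 encodes a mitochondrial protein that promotes removal of mitochondria in low oxygen, and it had the largest SD among the lox/lox arrays of the 45 genes, 0.65. It measured 7.85, 8.41 and 9.14 in lox/lox, against 7.25, 7.79 and 7.47 in wt/wt. The lox/lox values were spread over more than a log2 unit, and the lowest lay just above the highest wt/wt array. The change of 0.96 (SE 0.26, 1.95-fold) was not called (limma adjusted p = 0.0621). Its second probe set gave 7.26, 7.68 and 8.17 in lox/lox, against 6.49, 7.07 and 7.14 in wt/wt (0.80). The identifier of the first fell among chromosome 14 genes, and that of the second among chromosome 7 genes, where Bnip3 lies. Where their probes map was not checked. The gene did pass after quantile normalization (adjusted p = 0.0471), median centring (0.0376), a trended robust variance (0.025), array weights (0.043), with replicate numbers as a block (0.00965) and without lox/lox replicate 1 (0.00753). Without lox/lox replicate 3 the change was 0.63 (adjusted p = 0.117). Its paralog Bnip3l had a change of 0.011 (95% interval -0.18 to 0.20).

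Car9 encodes a carbonic anhydrase of the cell surface that is among the most HIF-dependent genes. It averaged 3.78 in lox/lox and 3.84 in wt/wt, below the array medians in both, and no detection calls were used. Ankrd37 measured 5.42, 5.20 and 5.33 in lox/lox, against 5.46, 5.44 and 5.68 in wt/wt. The groups did not overlap, and the change of -0.21 was not called (limma adjusted p = 0.279).

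Pathway genes outside the 45 were counted in 6 further lists with 116 measured genes. Of these, 1 was called higher, 8 lower and 107 were not called, with a median change of -0.028. Over all genes, 2.55% were called higher and 3.61% lower. An unadjusted limma p under 0.05 was found for 35 of the 116, beside 3579 of 19938 over all genes. The other 26 genes of glucose and lactate transport and glycolysis had 0 calls in limma and 5 with an unadjusted p under 0.05, and the widest change among them was that of Adpgk, the ADP-dependent glucokinase (-0.36, adjusted p = 0.0528). Adpgk did pass with quantile normalization, cyclic loess, a trended robust variance, array weights and dim genes left out. It also passed without lox/lox replicate 3 (limma adjusted p = 0.0316). The 11 further genes of oxygen sensing had 0 calls in limma (3 with an unadjusted p under 0.05), and so had the 10 of the pentose phosphate pathway (also 3). The widest changes there were those of Siah2, a ubiquitin ligase that acts on Egln hydroxylases (-0.26, limma adjusted p = 0.195), and of H6pd, the hexose-6-phosphate dehydrogenase of the endoplasmic reticulum (0.30, adjusted p = 0.154). H6pd passed without wt/wt replicate 1 (adjusted p = 0.0474).

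The 34 other HIF targets again had calls both ways, 1 higher and 4 lower, beside 2.55% and 3.61% of all genes. An unadjusted limma p under 0.05 was found for 15 of the 34, beside 3579 of 19938 over all genes. Ak4, a mitochondrial adenylate kinase, had the widest change (-2.38, adjusted p = 1.84e-05). The identifier of its probe set fell among those of chromosome 2 genes, while Ak4 lies on chromosome 4. Where its probes map was not checked. Cited2, which competes with HIF for the coactivators p300 and CBP, measured 6.84, 6.70 and 7.03 in lox/lox, against 7.81, 8.16 and 7.91 in wt/wt (-1.10, limma adjusted p = 0.000405). Tfrc, the transferrin receptor, and Pgm2, which acts on phosphopentoses, had changes of -0.66 and -0.52 (limma adjusted p = 0.000657 and 0.00642). Ddit4, an inhibitor of mTORC1 raised by stress, measured 8.54, 8.97 and 9.39 in lox/lox, against 8.37, 8.08 and 7.90 in wt/wt (0.85, limma adjusted p = 0.0269). Leaving out lox/lox replicate 2 or 3, or wt/wt replicate 2 or 3, ended this call (highest adjusted p 0.112). lox/lox replicate 3 was the highest lox/lox array for 25 of these 34 genes (73.5%), with a median distance of 0.26 from the other 2. It was also the highest for 13 of 19 genes of the tricarboxylic acid cycle (68.4%), 9 of 16 of gluconeogenesis and glycogen (56.2%) and 7 of the 8 ES cell markers (87.5%). Of the 26 other transport and glycolysis genes it was the highest for 9 (34.6%). Many of these 26 averaged below the array medians, such as Hk3 (3.85 in lox/lox) and Pgk2 (3.81), and the lists were not matched for brightness. The median distance of lox/lox replicate 3 was 0.06 for the tricarboxylic acid cycle and 0.06 for gluconeogenesis and glycogen. That is the 0.06 found for all genes brighter than the array median. For the ES cell markers it was 0.12. By rank, high values of this array were thus also common in other lists, but its distance there was smaller than for the 45 genes (0.19) and the other HIF targets. Kdm3a, a histone demethylase among the other HIF targets, averaged 8.50 in lox/lox and 8.80 in wt/wt (-0.30, adjusted p = 0.087). It passed with a trended robust variance, with array weights and without wt/wt replicate 1 (limma adjusted p = 0.0433 in the last).

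In the tricarboxylic acid cycle, 2 of 19 genes were called lower and 0 higher, beside 3.61% and 2.55% of all genes. An unadjusted limma p under 0.05 was found for 4 of the 19. Idh2, the mitochondrial isocitrate dehydrogenase that makes NADPH, measured 9.75, 9.67 and 9.73 in lox/lox, against 10.26, 10.24 and 10.22 in wt/wt (-0.52, limma adjusted p = 0.00195). Suclg2, a subunit of GTP-forming succinyl-CoA ligase, had a change of -0.62 (adjusted p = 0.0167), lost without lox/lox replicate 1 or 2. The identifier of its probe set fell among those of X chromosome genes, while Suclg2 lies on chromosome 6. Where its probes map was not checked. Of 16 genes of gluconeogenesis and glycogen, 2 were called lower and 0 higher, and 5 had an unadjusted limma p under 0.05. The 2 called were Pck2, mitochondrial PEP carboxykinase (-0.42, adjusted p = 0.0198), and Pygb, brain-type glycogen phosphorylase (-0.29, adjusted p = 0.0438). Pck2 lost its call without lox/lox replicate 1 or 2 or wt/wt replicate 1 (adjusted p up to 0.0808), and Pygb when any array except lox/lox replicate 3 was left out (highest adjusted p 0.175).

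**Figure D4:**
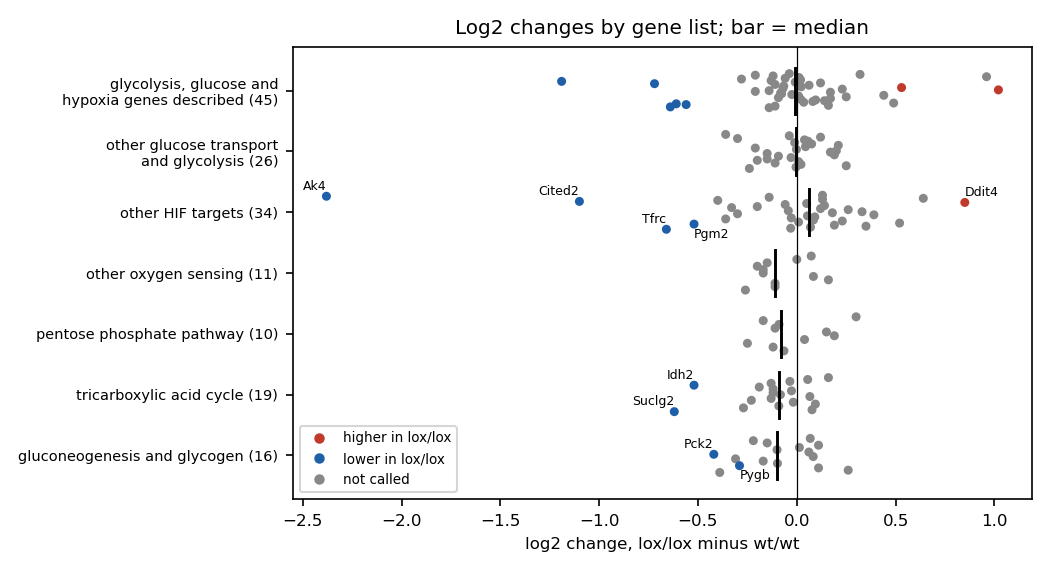
Each point is the log2 change, lox/lox minus wt/wt, of 1 gene, in the 45 genes described (top row) and in 6 further lists, with the number measured in brackets and the median as a black bar. The 9 called genes outside the 45 are labelled, 8 of them lower in lox/lox and Ddit4 higher.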

How the data were processed

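Total RNA of 3 lox/lox and 3 wt/wt cultures was hybridised to 1 Affymetrix array (Mouse Gene 1.0 ST) each. The deposited values are log2 intensities, and RMA and affy, named without versions in the submitters' processing notes, are how the authors made them. The genome build was not given in the sources used here. RMA assumes like distributions between arrays, so a shift shared by all RNA cannot be seen. The number of arrays limits the precision. Of 35556 probe sets, 21789 had 1 gene symbol in the platform annotation, 1621 several, and 12146 none.

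The probe set with the highest mean stood for each of 19938 genes. The lox/lox arrays were set against the wt/wt arrays in limma 3.58.1 (R 4.3.3) with lmFit and eBayes. p-values were Benjamini-Hochberg adjusted over all genes, and genes were called at an adjusted p under 0.05. The test was checked on simulated data with independent noise for each gene and array. That check does not cover the variation that genes share on an array. p-values measure the spread between 3 samples a genotype. The members, lists, rule for named genes and alternatives were chosen with earlier results of these data known. The rule allowed every member and, of the other lists, all called genes and up to 3 with the largest change. The widest change of each list was named, and Kdm3a was named outside the rule. Alternatives were 3 normalizations, a filter on dim genes, other probe sets, 2 variance models, replicate numbers as a block, leaving out arrays, and stricter thresholds. Promoter windows are from RefSeq, and motifs were searched on both strands. Same-numbered arrays did not deviate together (correlations 0.058, -0.122 and -0.051), so the numbers were not taken as pairs.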

Additional observations from a re-analysis of the deposited data

How the results depend on the processing

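The 7 called members kept their sign in all 16 alternative settings, and 4 of them (Slc2a3, Pdk1, Epas1 and Egln3) passed in every fit without 1 array. The number of higher members, 2 here, was 4 with a trended robust variance and 4 with the replicate block. It was 1 at an adjusted p under 0.01, 1 with a change of at least 1.5-fold required, 1 without both lox/lox replicate 3 and wt/wt replicate 2 (chosen after seeing the data), and 1 to 2 without 1 array. The number of lower members, 5 here, was 3 to 5 without 1 array, with 3 without lox/lox replicate 2. The replicate block left it at 5 and gave 1086 calls over all genes, where 1228 were called without it, and the same-numbered arrays share only a number. Over all genes the number was 626 to 1132 without 1 array (626 without lox/lox replicate 2, 806 without wt/wt replicate 2 and 661 without wt/wt replicate 3), 697 with both arrays left out, 553 at an adjusted p under 0.01 and 451 at 1.5-fold. Of the other pathway genes, the 1 higher gene became 2 with quantile normalization, cyclic loess, a trended robust variance or array weights, 3 without dim genes, 0 at an adjusted p under 0.01, and 0 to 2 without 1 array. The 8 lower genes became 13 with a trended robust variance, 16 with array weights, 5 at an adjusted p under 0.01, 4 at 1.5-fold, and 5 to 15 without 1 array, the 15 when lox/lox replicate 3 was out and the 5 when lox/lox replicate 1 or 2 was. The other normalizations moved the median of all genes to between -0.003 and -0.027.

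The sign turned in 12 members that passed in none of these settings. With both arrays left out the change was -0.007 for Slc16a1, -0.012 for Pgam1, -0.025 for Eno3, -0.058 for Ldha, -0.047 for Pfkfb4, -0.047 for Pdk4, -0.12 for Egln1 and -0.037 for Bnip3l. With median centring it was -0.0002 for Pgam1, -0.010 for Pfkfb4, -3e-05 for Egln1 and -0.008 for Bnip3l, and with array weights -0.0002 for Pgam1, -0.004 for Ldha, -0.065 for Egln1 and -0.014 for Bnip3l. Pfkfb4 had -0.015 with quantile normalization and -0.008 with cyclic loess. Without 1 array, the range was -0.033 to 0.092 for Slc16a1, -0.11 to 0.030 for Aldoa, -0.010 to 0.044 for Pgam1, -0.097 to 0.044 for Eno2, -0.040 to 0.061 for Ldha, -0.080 to 0.043 for Pfkfb2, -0.054 to 0.089 for Pfkfb4, -0.20 to 0.21 for Egln1, -0.054 to 0.078 for Bnip3l and -0.12 to 0.019 for Car9. The cause was not tested. Background signal can understate changes of genes near or below the array medians, which was not measured here, and 3 arrays a genotype limit what can be called.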
